A study of Mus musculus with 6 samples.

Results

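Rmst and 7 other long noncoding RNAs were described across cultures of mouse neural progenitors with and without stimulation of the hedgehog pathway. The 8 genes named were Rmst, Meg3, Rian, Mirg, Miat, Malat1, Neat1 and H19. Rmst was selected on its lower signal with the agonist, and the others were listed with results of the same comparison known, so the changes given for them are descriptions and no independent evidence. A probe set, the group of short probes on the array that together read 1 transcript, was taken as a member where the platform annotation gave it 1 of these symbols and no other. This gave 30 probe sets of 7 genes, out of 34945 probe sets of 18193 genes with 1 symbol. H19 had none, because its only probe set is annotated to H19 and Mir675 together, and no value is given for it.

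RNA was read on 6 Affymetrix Mouse Genome 430 2.0 arrays, 1 per culture. In the 3 RA_Ag1.3 cultures, embryoid bodies were kept in suspension for 2 days and then given 500 nM retinoic acid (RA) together with 50 nM Ag1.3 for 3 days. Ag1.3 activates Smoothened, the membrane protein through which the hedgehog signal enters the cell. The 3 RA cultures had the same retinoic acid for the same time without the agonist. All cells of both groups came from 1 embryonic stem cell line with a FLAG-tagged Gli1 transgene driven by the constitutive Rosa26 promoter, so every culture carried extra Gli1, a transcription factor of the pathway. The cultures were grown in parallel as 3 pairs with shared numbers. The p-values speak only for those 3 pairs, and limma draws the variance of each probe set toward a value shared by all tested. Median intensities ran from 48.8 to 52.6 on RA_Ag1.3 arrays and from 48.7 to 51.9 on RA arrays. Probe sets for bacterial Trp genes, which had no matching spike, read 4.02 to 20.7, and member values in that range are called near background.

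Long noncoding RNAs are transcripts that act without being translated, and many stay in the nucleus. Rmst is known from human neural stem cells as a partner of the transcription factor SOX2 at promoters of neurogenic genes, and in the mouse embryo from the midbrain, the isthmus and the dorsal midline. Meg3, Rian and Mirg lie one after another in the imprinted Dlk1-Dio3 domain, where they are made from the maternal chromosome and Dlk1 from the paternal one. Miat is an abundant nuclear RNA of neurons and their precursors, Malat1 gathers in nuclear speckles, and Neat1 is the scaffold of paraspeckles.

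Several members also host microRNAs, short RNAs that pair with messages through a seed at bases 2 to 8. In RefSeq on GRCm38.p6, 2 mature microRNA arms lay within the span of Rmst, 3 within Meg3, 6 within Rian and 19 within Mirg, and none within Miat, Malat1 or Neat1. The arms of Rmst, of Mir770 in Meg3 and the main arm of Mir370 in Rian are printed with the seed in capitals, because they show what else the spans of the members hold. The last pair, both from Mirg, share 1 seed. Mature microRNAs are not read by the array, and no level is given for them.
mmu-miR-1251-5p: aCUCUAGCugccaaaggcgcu
mmu-miR-1251-3p: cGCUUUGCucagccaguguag
mmu-miR-770-5p: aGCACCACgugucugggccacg
mmu-miR-770-3p: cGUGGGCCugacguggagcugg
mmu-miR-370-3p: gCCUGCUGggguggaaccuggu
mmu-miR-453: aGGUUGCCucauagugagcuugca
mmu-miR-496a-5p: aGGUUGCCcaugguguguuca

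The promoter of Meg3 is shown because Meg3 had the most probe sets of the members and the only probe set called among those other than Rmst's. The window runs from 250 bases before to 50 after a start site, at chr12:109540746-109541045 on the plus strand of GRCm38.p6 (RefSeq). Capitals mark TGACGTCA, the cAMP response element, then GACCACCC, the core of the site bound by Gli proteins, then a TATA box read on both strands.
Meg3 promoter: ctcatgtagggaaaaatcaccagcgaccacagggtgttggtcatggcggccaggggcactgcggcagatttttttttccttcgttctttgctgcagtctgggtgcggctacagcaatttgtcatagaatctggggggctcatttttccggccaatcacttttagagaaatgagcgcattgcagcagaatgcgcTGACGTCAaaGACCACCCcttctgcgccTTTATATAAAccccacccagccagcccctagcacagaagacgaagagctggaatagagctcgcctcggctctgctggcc
The Gli core began 47 bases before the start and the cAMP response element 57 bases before it. TATAAA was matched 25 bases before the start on the plus strand and, overlapping it, 29 bases before on the other strand. Both strands of 32851 RefSeq windows of 300 bases were searched, and 0.807% held GACCACCC, 1.79% TGACGTCA and 13.6% TATAAA. A second Meg3 start, at chr12:109545148-109545447, had the Gli core on the minus strand 226 bases before it. The longer form GACCACCCA, found in 0.253% of all windows, was in neither Meg3 window. The windows of Rian, Mirg, Miat and Malat1 held none of these letters. Such matches describe letters in a window, and binding was not measured.

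Rmst was lower with the agonist in every pair. Its brighter probe set, 1438822_at, read 31.3, 53.9 and 62.5 in RA_Ag1.3 replicates 1 to 3, against 261, 317 and 184 in RA replicates 1 to 3. The highest RA_Ag1.3 array lay far below the lowest RA array, so the groups did not overlap. Means were 49.2 ± 16.1 in RA_Ag1.3 and 254 ± 66.9 in RA (SD, n = 3 each), a 5.16-fold ratio of means. On the scale used for all fold changes here, log2(intensity + 16) and RA_Ag1.3 minus RA, the change was -2.55, -2.25 and -1.35 in pairs 1 to 3, with a mean of -2.05 ± 0.63 (SD of 3 pairs). Since Rmst was chosen for this decrease, no test is attached to it. In bulk RNA, fewer cells that make a transcript and less of it per cell cannot be told apart, here and below.

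The second Rmst probe set, 1440495_at, showed the same sign at a much smaller size. It read 9.15, 19.9 and 10.5 in RA_Ag1.3, all near background, against 28.6, 26.9 and 19.8 in RA. The highest RA_Ag1.3 value exceeded the lowest RA value by a small margin, so here the groups overlapped, although each pair was lower with Ag1.3. Its mean change was -0.51, against -2.05 in the brighter probe set, and it was -0.94 at pseudocount 1 and -0.21 at pseudocount 64, so its size is not settled. On arrays of either group this probe set lay at or only just above the Trp values.

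A further probe set may read Rmst under another name, which was not checked on probe sequences. RefSeq lists Gm3515 as a synonym of Rmst, while the platform annotation keeps it as a gene of its own. Its probe set, 1437418_at, read 102, 134 and 136 in RA_Ag1.3 cultures, against 472, 539.9 and 267 in RA cultures. All 3 RA_Ag1.3 arrays were again below all 3 RA arrays. The mean change was -1.61, with -2.04, -1.89 and -0.89 in pairs 1 to 3, and as in 1438822_at the smallest change was that of pair 3. Across the 6 arrays the 2 probe sets correlated at r = 0.985 on the log2 scale, over arrays that include both groups.

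**Figure D1:**
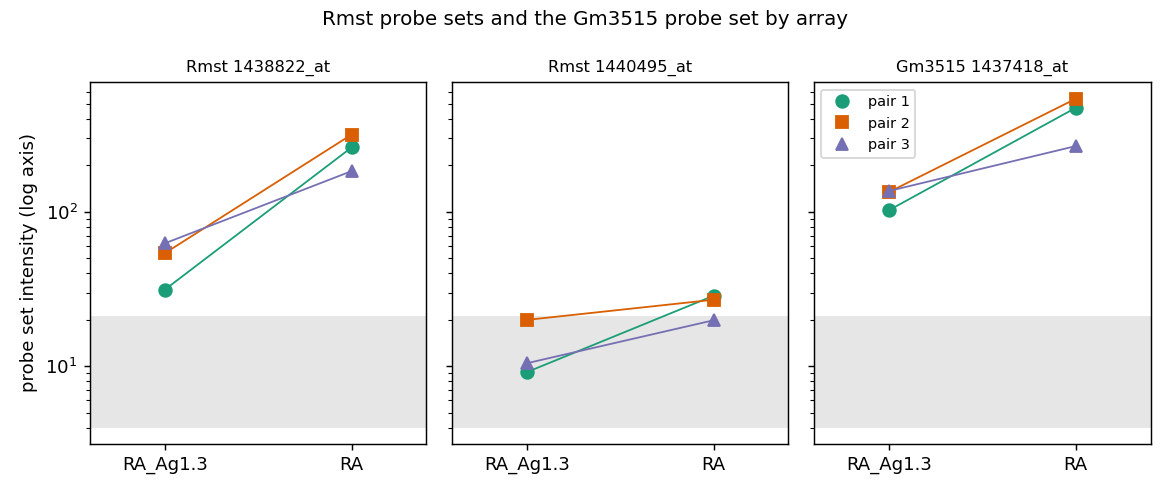
Intensity of both Rmst probe sets and of the Gm3515 probe set on each array (log axis), with RA_Ag1.3 left and RA right and lines joining the cultures of a pair. The grey band spans the Trp controls, 4.02 to 20.7; 1438822_at and 1437418_at separate the groups above it, and 1440495_at lies in or just above it.

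Genes with the same pattern as Rmst over the arrays were sought among 11440 genes whose brightest probe set exceeded the median probe set. The 8 most alike, with r between 0.985 and 0.991 over 6 arrays, were Rrp9, Spry1, Sgo1, Ldhb, Lpar1, Xpo5, Cenpn and Gm3515. The likeness is of shape, not of size. Apart from Gm3515, the change was largest for Spry1, an antagonist of receptor tyrosine kinase signalling, at -0.73, and smallest for Xpo5, which exports microRNA precursors from the nucleus, at -0.06. Of the nearest measured genes on each side of Rmst in annotation order, Tmpo, a protein of the nuclear envelope, changed by -0.04 and Nedd1, a centrosome protein, by -0.05.

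A list of 16 genes was drawn up around Rmst, from partners and reported targets and from other genes. The others include its neighbour Nedd1, and Sox1, Sox3, Wnt1, Lmx1a, Lmx1b and Msx1, which the marker lists below count too. Of the 16, 14 were measured, with Dlx1 near background on all arrays. In limma's test 2 rose while none fell. Over all 45037 probe sets, 0.426% were called higher and 0.0888% lower, 0.515% in all. Without adjustment 11.6% of them had a p under 0.05, the rate against which such counts below are to be read. Hey2, a transcriptional repressor of the Notch pathway reported as a target in human cells, read 277, 213 and 220.2 in RA_Ag1.3 and 44.2, 63.9 and 55.3 in RA (log2 change 1.84, adjusted p = 0.0211). Neurog2, a proneural factor also reported as a target there, averaged 898 ± 532 in RA_Ag1.3 and 51.3 ± 18.5 in RA (SD, n = 3 each; 3.59, adjusted p = 0.0281). Sox2 itself changed by -0.10 (adjusted p = 0.722) and Rest, a repressor of neuronal genes, by -0.37 (adjusted p = 0.189). All 3 RA_Ag1.3 values were below all 3 RA values in 4 of the 14, namely Sox2, Rest, Wnt1 (-0.56) and Msx1 (-0.42). They were above in 2, Hey2 and Neurog2. Over all probe sets 5.42% were below in this way and 5.8% above.

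Markers of the regions in which Rmst is known, and of neighbouring dorsal progenitors, were counted as well. Of 12 measured markers of dorsal and intermediate progenitors, 4 fell and none rose, and their summed intensity was 771 to 1757 in RA_Ag1.3 and 2524 to 6322 in RA. The transcription factors Dbx1, Pax3, Irx3 and Irx5 were those that fell, Dbx1 by 3.29 and Pax3 by 3.32 on the log2 scale (adjusted p from 0.0209 to 0.0344). Of 11 midbrain and isthmus markers only En2, a homeodomain factor of that region, passed the test and fell, at 51.5 ± 11.5 in RA_Ag1.3 and 149.9 ± 42.3 in RA (SD, n = 3 each; -1.28, adjusted p = 0.0182). The sums for that list were 439 to 485 and 528 to 609 in the same order, and En1, Otx2 and Fgf8 were near background on all arrays. Those sums include En2, and the median change over the list was 0.05, so the list did not fall as a whole. None of 11 roof plate and dorsal midline markers was called by limma, and 5 had an unadjusted p under 0.05, led by Rspo1 (-0.42) and Msx2 (-0.38). Their sums were 374 to 494 in RA_Ag1.3 and 459 to 560.3 in RA, with Wnt3a, Rspo3 and Zic2 near background. Wnt1, Lmx1a and Lmx1b are counted in this list and in the midbrain and isthmus list. The part of these cell types in the Rmst values was not tested. The 12 general neural progenitor markers, which check the labelled cell type, were all measured above background, with sums of 12961 to 17988 in RA_Ag1.3 and 11188 to 17741 in RA, none of them called by limma and 5 with an unadjusted p under 0.05, led by Notch1 (0.66) and Pax6 (-0.48).

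Meg3, the first of the maternal transcripts of the Dlk1-Dio3 domain, was read by 11 probe sets. In the deposited values all 11 had a positive change, from 0.08 to 0.84 with a median of 0.42, although 1428764_at and 1428765_at turned to -0.0026 and -0.06 when arrays were scaled to the hybridization spikes. In 9 of the 11 all RA_Ag1.3 arrays were above all RA arrays, a pattern met in 5.8% of all probe sets, against 5.42% for the opposite one. One passed the test: 1452183_a_at rose, at 730, 597 and 868 in RA_Ag1.3 replicates 1 to 3, against 401, 383 and 499 in RA replicates 1 to 3. The lowest RA_Ag1.3 array lay above the highest RA array. Its change was 0.75 (SE 0.09, adjusted p = 0.0467), close to the threshold of 0.05. Under 10 alternatives it was 0.56 to 0.81, higher in each, and passed in 5, but adjusted p was 0.248 without the replicate block and 0.212 to 0.38 when any 1 pair was left out.

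The brightest Meg3 probe set, 1439380_x_at, read 1271, 1154 and 1759.6 in RA_Ag1.3, against 772, 872 and 1017 in RA. Its groups did not overlap either, and the change of 0.63 had an adjusted p of 0.11. The largest change, 0.84 in 1426758_s_at, had an adjusted p of 0.0713, with 573 ± 64.5 in RA_Ag1.3 and 315 ± 50.6 in RA (SD, n = 3 each). A suffix with s or x marks a probe set whose probes can also match other sequences. The 5 probe sets with the highest intensities changed by 0.42 to 0.84. The dimmer ones other than 1452906_at changed by 0.08 to 0.33, and 1452906_at by 0.69, with 1.27 in pair 3 against 0.48 and 0.32 in pairs 1 and 2. The dimmest, 1436057_at, averaged 17.2 ± 4.35 in RA_Ag1.3 and 10.6 ± 4.45 in RA (SD, n = 3 each), within or just above the range of the Trp controls. Its change of 0.33 was 0.71 at pseudocount 1 and 0.12 at pseudocount 64, so its size is not settled.

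Disagreement between probe sets of 1 gene was tested on the difference of each further probe set from the brightest one, over 16752 such probe sets, of which 0.197% were called. Of the 23 further probe sets of the members none was called by limma, and 6 had an unadjusted p under 0.05, as did 9.72% of all further probe sets. Of the 6, 4 belonged to Meg3, all with a smaller change than the brightest probe set, by 0.37 to 0.55 (lowest adjusted p = 0.311). The others were 1440495_at of Rmst, which is described only, and 1 probe set of Malat1.

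Rian, a host of small nucleolar RNAs that lies downstream of Meg3, was read by 4 probe sets. The brightest, 1452899_at, read 103, 104 and 106 in RA_Ag1.3, against 82.5, 87.4 and 69.7 in RA. The RA_Ag1.3 values were almost equal and all above those of RA. In the deposited values the 4 changes were 0.08 to 0.35. In 3 all RA_Ag1.3 arrays were above all RA arrays, as in 5.8% of all probe sets. The smallest, that of 1440001_at, overlapped and was -0.05 when scaled to the spikes. Limma called none of the 4 (adjusted p from 0.248 for 1427580_a_at to 0.882 for 1440001_at), and 3 had an unadjusted p under 0.05.

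Mirg, the microRNA host at the far end of the cluster, had 2 probe sets, with changes of 0.20 and 0.26 and overlapping groups. In 1440097_at the RA_Ag1.3 values were 175, 137 and 181, against 143, 137 and 141 in RA, so pair 2 was level. Neither passed (adjusted p = 0.532 and 0.43), and neither had an unadjusted p under 0.05. Over Meg3, Rian and Mirg together, 17 of 17 probe sets had a positive change in the deposited values, against 47.7% of all probe sets. Of the 17, 1428764_at, 1428765_at and 1440001_at turned under the spike scaling. In 12 of the 17 all RA_Ag1.3 arrays were above all RA arrays, as in 5.8% of all probe sets. Probe sets of 1 gene share transcripts and are not replicates.

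Of the genes around them, 8 of 11 were measured, and limma called none, with 1 unadjusted p under 0.05, that of Dlk1. Dlk1, a Notch-like membrane protein made from the other parental chromosome, read 201, 174 and 161 in RA_Ag1.3, against 127, 69.9 and 143 in RA. It was higher in each pair, and the lowest RA_Ag1.3 value lay above the highest RA value. Its change of 0.64 did not pass (SE 0.19, adjusted p = 0.294). Dync1h1, the heavy chain of cytoplasmic dynein, changed by 0.16 (adjusted p = 0.534).

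**Figure D2:**
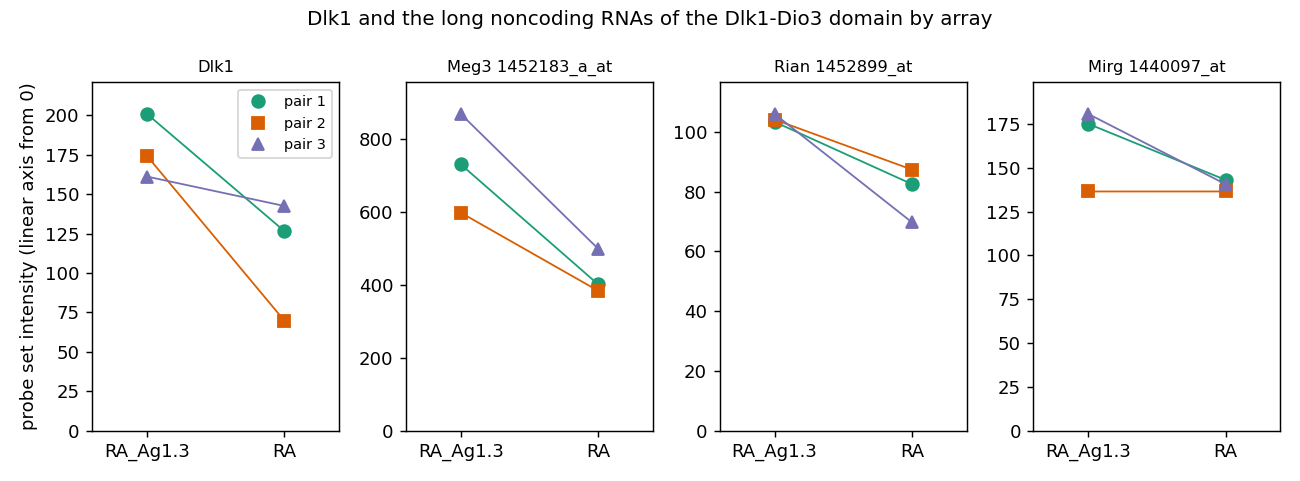
Intensity (linear axis from 0) of Dlk1, of Meg3 1452183_a_at and of the brightest probe sets of Rian and Mirg, with RA_Ag1.3 left and RA right and lines joining the cultures of a pair. All RA_Ag1.3 points of Dlk1, Meg3 and Rian lie above all RA points, while pair 2 of Mirg is level at 137. Of the 4, only the Meg3 probe set passed the test. It was picked as the Meg3 probe set with the lowest adjusted p, and the brightest one, 1439380_x_at, did not pass.

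Over all 6 arrays the genes most like Meg3 were Kif26a, Ubr1, Selenop, Stx16 and Itga6, with r between 0.992 and 0.999. Kif26a, an atypical kinesin, averaged 145 ± 44.7 in RA_Ag1.3 and 78.1 ± 15.3 in RA (SD, n = 3 each; a log2 change of 0.76). Those most like Rian were Zdhhc17, Slc37a2, Mapre2, Tuba1a and Hectd2, with r of 0.987 to 0.992. Mapre2 and Tuba1a, both of the microtubule system, changed by 0.88 and 0.21.

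Among 26 measured genes of other imprinted domains, 1 rose and none fell, and Snrpn was near background on all arrays. Nnat, a membrane proteolipid of developing neurons that is made from the paternal chromosome, read 2478, 2241 and 2138 in RA_Ag1.3, against 1481, 1302 and 1280.3 in RA (log2 change 0.75, adjusted p = 0.0371). The median change of that list was 0.14, beside -0.01 over all probe sets, and 11 of the 26 had an unadjusted p under 0.05. Of 14 measured genes around H19, with Tnnt3 near background, none was called by limma, while 3 reached an unadjusted p under 0.05. These were Phlda2, a placental growth regulator, at -0.40 (adjusted p = 0.163), Th, the enzyme that starts dopamine synthesis, at 0.29 (0.32), and Igf2, a growth factor, at -0.24 (0.376). Kcnq1ot1, the antisense RNA of the next imprinted cluster, changed by 0.11 and Mrpl23, beside H19, by 0.02.

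Miat had 2 probe sets, and in both all RA_Ag1.3 arrays were above all RA arrays, as in 5.8% of all probe sets. In 1455325_at the values were 1277, 1277 and 1195 in RA_Ag1.3, against 866, 1041 and 528 in RA. The spread lay on the RA side, where replicate 3 was lowest, so pair 3 gave 1.16 and pair 2 gave 0.29. The mean change of 0.67 did not pass (SE 0.17, adjusted p = 0.241). In 1458903_at the changes were nearly equal, at 0.42, 0.43 and 0.56, with a mean of 0.47 and an adjusted p of 0.126. Values there were 55.5, 63.0 and 52.9 in RA_Ag1.3, against 37.6, 42.8 and 30.9 in RA.

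The genes most like Miat over 6 arrays were Tbcd, B4galt7, 2210408K08Rik, Pmvk and Hmga2, with r of 0.986 to 0.998, a list added after the values were seen. Celf3, an RNA-binding protein reported to associate with Miat, averaged 237 ± 46.2 in RA_Ag1.3 and 89.6 ± 35.9 in RA (SD, n = 3 each; 1.31, adjusted p = 0.0569). Qk, another splicing regulator, changed by 0.24 (adjusted p = 0.346).

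Neuronal markers were measured beside these RNAs. Of 16 measured, 10 rose and none fell, none was near background on all arrays, and their summed intensity was 8277 to 12022 in RA_Ag1.3 and 2889 to 5019 in RA. Within each group the neuronal sum was lowest in replicate 3. Among Meg3 probe sets, 1439380_x_at was highest in replicate 3 of each group and 1436713_s_at in replicate 1 of each. Both Miat probe sets were lowest in replicate 3 of each group. Elavl4, a neuronal RNA-binding protein, rose by 1.70, Stmn2, a microtubule regulator of growing axons, by 1.55, Nefm, a neurofilament subunit, by 1.72, and Ina, an intermediate filament protein, by 1.36 (adjusted p from 0.00657 to 0.0121). Of 12 motor neuron markers 6 rose, with sums of 2495 to 3990.4 in RA_Ag1.3 and 447 to 504 in RA, led by Phox2a, Isl1, Olig2 and Slc18a3. Of 12 floor plate markers 5 rose, with sums of 2759 to 4547 in RA_Ag1.3 and 1373 to 1593 in RA, and Corin was near background. The lowest p there were those of Spon1, Foxa2, Slit3 and Sulf1. The part of these cells in the values of the noncoding RNAs was not tested.

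Malat1 was read by 7 probe sets and none passed in limma's test for the agonist, with 1 unadjusted p under 0.05. Changes ran from -0.27 to 0.21. The brightest, 1436202_at, read 445, 545 and 829.8 in RA_Ag1.3, against 421, 598 and 599 in RA, with overlapping groups. Its change of 0.13 (adjusted p = 0.765) was -0.05 when scaled to the spikes. The only one without overlap was 1427285_s_at, at 19.7, 17.2 and 16.2 in RA_Ag1.3, against 20.8, 28.8 and 24.9 in RA, with -0.27 (adjusted p = 0.418). Those RA_Ag1.3 values are near background, and 5.42% of all probe sets had all RA_Ag1.3 arrays below all RA arrays.

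Neat1 had 2 probe sets and neither passed for the agonist nor had an unadjusted p under 0.05. 1442881_at read 117, 106 and 100.1 in RA_Ag1.3 and 109.8, 108 and 111 in RA, a change of -0.02 (adjusted p = 0.945). 1428083_at read 34.6, 47.1 and 169 in RA_Ag1.3, against 35.5, 75.0 and 179 in RA, a change of -0.21 (adjusted p = 0.595). The first was level over all arrays, and the second was highest in both cultures of pair 3 and lowest in both cultures of pair 1.

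A test of the pair term, which the choice of members did not use and which was added after the values were seen, asks whether levels differed between the 3 pairs. Over all probe sets limma called 0.209%. Among the 30 of the members it called 1, Neat1 1428083_at (adjusted p = 0.0473), and 7 had an unadjusted p under 0.05, as did 16.1% of all probe sets. Over 9 alternatives the count of all calls ran from 0 to 2301 and that of members from 0 to 4. The call was lost at pseudocount 1, after quantile normalization and without any 1 of the pairs, and adjusted p ran from 0.00116 to 0.429 over 9 alternatives. Without pair 3, in which both cultures were highest, it was 0.429.

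Malat1 probe sets also fell into unlike patterns over the pairs. In 1436202_at and 1429060_at both cultures of pair 1 were the lowest of their group. In 1438403_s_at, 1418189_s_at and 1418188_a_at both cultures of pair 1 were the highest. For example, 1438403_s_at read 644, 462 and 591 in RA_Ag1.3 and 548, 473 and 440.1 in RA. Tested as the difference from the brightest probe set, no pair effect was called by limma among the members or among all 16752 probe sets (0%), where 2240 had an unadjusted p under 0.05 (13.4%). At pseudocount 64 that test called 677 of all probe sets, and among brighter ones 3. Of the 6 further Malat1 probe sets, 5 had an unadjusted p under 0.05 (lowest adjusted p = 0.261), as did 1428083_at of Neat1 (0.231). So did 3 of the 10 further Meg3 probe sets, 1436713_s_at, 1429257_at and 1452905_at (lowest adjusted p = 0.261).

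**Figure D3:**
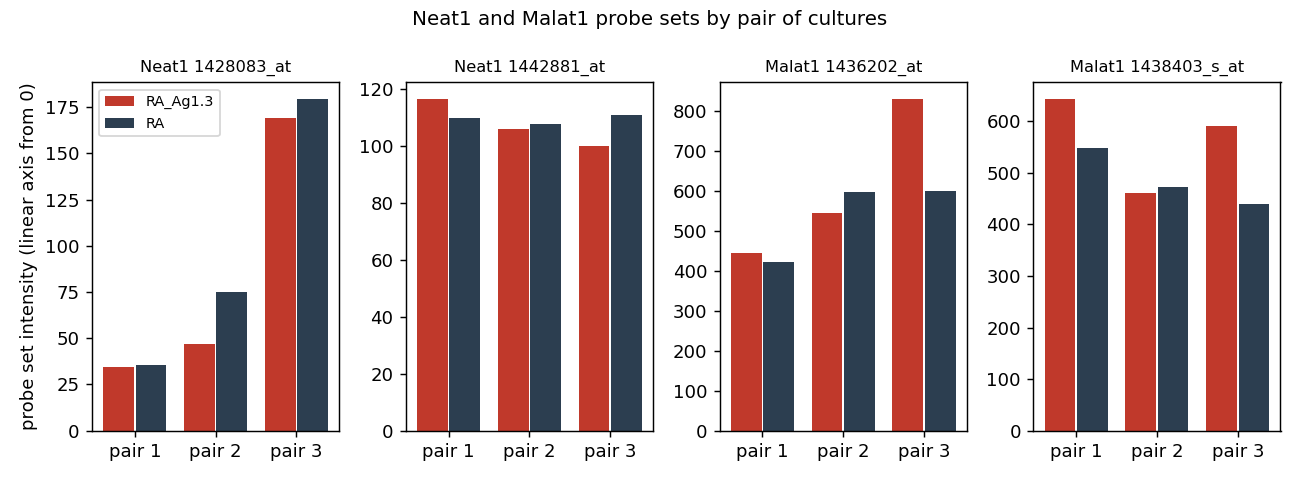
Intensity (linear axis from 0) of both Neat1 probe sets and of 2 Malat1 probe sets in each pair, RA_Ag1.3 bars left and RA bars right. Neat1 1428083_at is highest in both cultures of pair 3, at 169 and 179, and 1442881_at stays between 100.1 and 117; the Malat1 probe sets differ in which pair is lowest.

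Genes most like Neat1 1428083_at over the 6 arrays, also sought after its values were seen, were Agrn, Tmed8, Klc3, Clu and Ets1, with r of 0.995 to 0.998. Summed marker levels of several cell types also differed between pairs, some highest and some lowest in pair 3, and no test of a list by pair was run. The summed intensity of 13 pluripotent cell markers was 4270.3, 6358 and 8977 in RA_Ag1.3 replicates 1 to 3 and 6913, 10100.2 and 11637 in RA replicates 1 to 3, with none called by limma, 11 at an unadjusted p under 0.05 and none near background. The smallest p were those of Pou5f1 (-0.68, adjusted p = 0.0764) and Dppa4 (-0.75, 0.0985), both of the pluripotent state. For 16 endoderm and yolk sac markers the sums were 2852, 2449 and 4019 in RA_Ag1.3 and 2092, 2139 and 3743 in RA. Of these, Foxa2, also counted in the floor plate list, rose by 2.35 and Cxcr4 by 0.90. Sox17 fell by 1.21 and Apoa1 was near background. The 14 mesoderm and muscle markers summed to 739 to 893 in RA_Ag1.3 and 729 to 938 in RA, with none called by limma and 3 at an unadjusted p under 0.05, led by Kdr (0.57) and Tbx6 (-0.25). In contrast, the neuronal sums were 12022, 9915 and 8277 in RA_Ag1.3 replicates 1 to 3 and 5019, 4248 and 2889 in RA, lowest in pair 3. The sums of dorsal and intermediate and of general neural progenitor markers were also lowest in both cultures of pair 3. Igf2 read 304, 404 and 797 in RA_Ag1.3 and 349, 459.8 and 1030.4 in RA. The part of these cells in the Neat1 values was not tested.

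Among 19 measured genes listed for paraspeckles and nuclear speckles, where Neat1 and Malat1 are found, limma called none. The 2 with an unadjusted p under 0.05 were Celf3 and Qk, the RNA-binding proteins given above beside Miat. Nono and Sfpq, both core proteins of paraspeckles, changed by 0.02 and -0.04. Of the neighbours of these genes on the chromosome, Ltbp3 changed by 0.00 and Frmd8 by -0.21 (adjusted p = 0.43).

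Of 40 other long noncoding RNAs measured, Gm3515 left out, limma called none at the threshold, and 5 had an unadjusted p under 0.05. The lowest p was that of Sox2ot, the transcript that overlaps Sox2, at 253, 173 and 194 in RA_Ag1.3, against 133, 93.9 and 61.4 in RA (1.02, adjusted p = 0.0777). Its groups did not overlap. Xist, the RNA of X inactivation, changed by -0.09 (adjusted p = 0.784). The median change of the 40 was -0.0014, which includes 7 that were near background on all arrays.

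Without Rmst, 25 of the 28 remaining member probe sets had a positive change in the deposited values, while 47.7% of all probe sets did. The median of the 28 was 0.23. Of the 28, 11 read Meg3 and 7 read Malat1. Probe sets of 1 gene are not replicates, and the members were listed with this comparison known. The split of signs also depends on the overall level taken as equal. Scaling to the spikes moved the median of all probe sets to -0.14 and turned 7 of the 28. The plot of changes by pair shows each of them.

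**Figure D4:**
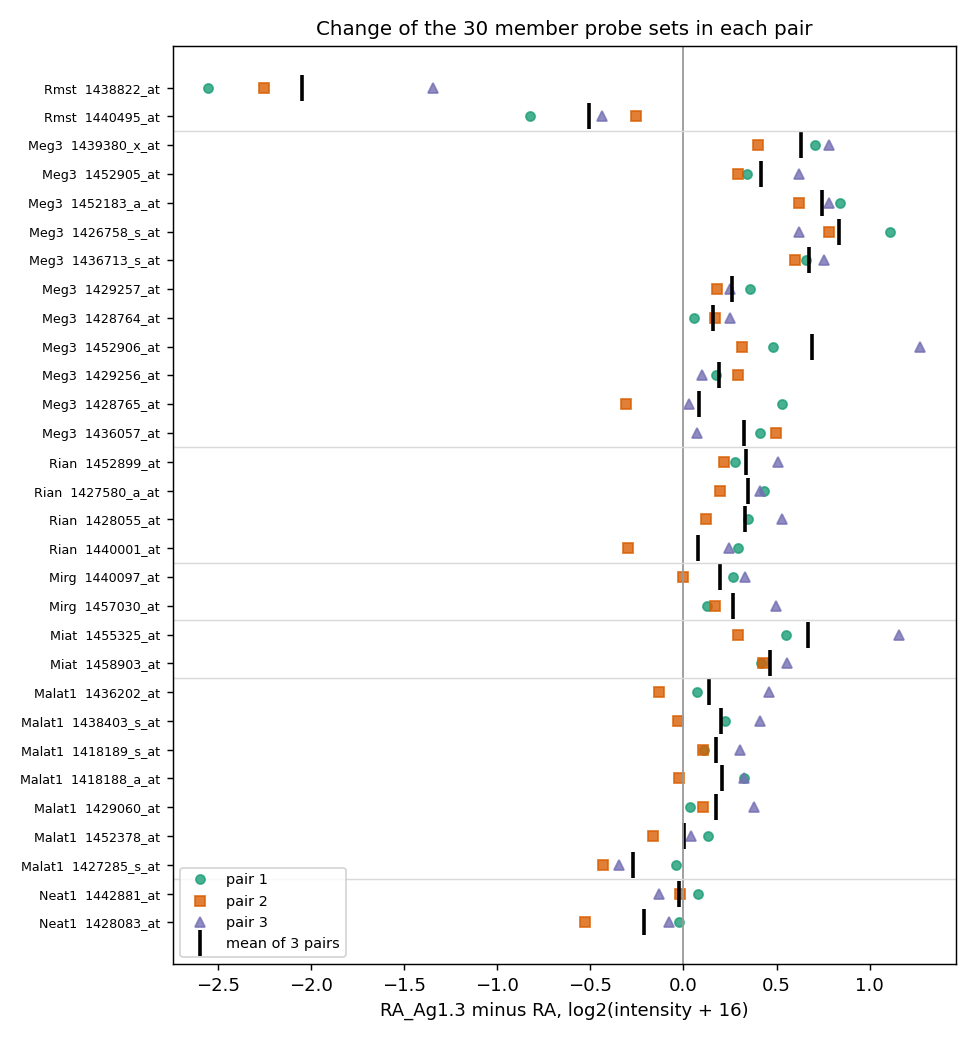
Change of each of the 30 member probe sets, RA_Ag1.3 minus RA in log2(intensity + 16), in each pair (symbols) and on average (black bars), brightest probe set first within a gene. Rmst 1438822_at lies far left of all others at -2.05; the 17 probe sets of Meg3, Rian and Mirg average above 0, of which 1428764_at, 1428765_at and 1440001_at turn negative with spike scaling.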

How the data were processed

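The authors deposited 1 intensity per probe set and array on a linear scale. How probes were summarised and arrays scaled is not given in the sources used here. Per the labels' protocols, RNA came from a mirVana extraction and was labelled with a 3' IVT kit, so mainly transcript ends are read. No genome build goes with the intensities. Of 45101 probe sets 64 controls were left out, and all 45037 others were tested, 932 with several symbols and 9160 not listed in the annotation included.

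Deposited intensities were transformed to log2(intensity + 16), which understates the change of dim probe sets. limma 3.58.1 in R 4.3.3 (lmFit, eBayes) fitted the agonist with replicate number as a block, two-sided, with Benjamini-Hochberg adjustment over all 45037 probe sets and a threshold of 0.05. The same fit was run on differences between probe sets of a gene, and the agonist and pair terms of the fit were tested on simulated data. Deviations from group means correlated at 0.54, 0.19 and 0.56 between same-numbered arrays, against -0.51 to 0.07 between others. Such deviations cancel within a group, so these values depend on one another. The pairing is taken from the series' design text, and what same-numbered cultures shared was not tested. The number of arrays limits the precision.

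Members and lists were chosen with earlier results of these data known. Genes were named by rule: all member probe sets, the genes most correlated with Rmst (8) and with Meg3 and Rian (5 each), neighbours, a set of known genes, and from each list up to 4 called genes, or 2 by p where none was called. List genes are given by their brightest probe set. Alternatives were no block, pseudocounts of 1 and 64, quantile normalization, spike scaling, an intensity trend in the prior variance, brighter probe sets only, 1 probe set per gene, and leaving out each pair.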

Additional observations from a re-analysis of the deposited data

How the results depend on the processing

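The change of Rmst 1438822_at stayed between -2.40 and -1.48 under 8 alternatives, and that of Gm3515 between -1.96 and -1.34 under 11. Counts of calls depended far more on the setting. The 232 probe sets called with the agonist, 82.8% of them higher, became 108 with no replicate block (93.5% higher), 0 at pseudocount 1, 839 at pseudocount 64 (63.6%), 1539 with spike scaling (24.2%), 1118 with an intensity trend (62.2%) and 1155 among brighter probe sets (56.2%). Without 1 pair they were 0 to 12, 12 without replicate 1 and 0 without replicate 2 or 3. Quantile normalization gave 207 and 1 probe set per gene gave 256, 77.0% of them higher. Members other than Rmst called, 1 in the fit with the block, were 0 with no replicate block, 0 at pseudocount 1, 4 at pseudocount 64, 2 after quantile normalization, 3 with spike scaling, 6 with an intensity trend, 5 among brighter probe sets, 0 with 1 probe set per gene and 0 without any 1 pair. Probe sets that differed from the brightest of their gene, 33 in all, were 16 with no replicate block, 0 at pseudocount 1, 391 at pseudocount 64, 5 of them of members other than Rmst, and 0 without any 1 pair. With only 2 pairs left, few degrees of freedom remain. The cause of the other shifts was not tested.

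Of the member changes, 246 values under the alternatives kept their sign and their side of the threshold, 15 passed it, 5 lost it, and 15 turned sign, all of these small. With spike scaling they were -0.0026 for Meg3 1428764_at, -0.0586 for Meg3 1428765_at, -0.047 for Rian 1440001_at, and -0.0516, -0.012, -0.0011 and -0.157 for Malat1 1436202_at, 1418189_s_at, 1429060_at and 1452378_at. Malat1 1452378_at was -0.0024 after quantile normalization. Leaving out 1 pair gave -0.14 (without replicate 1) to 0.279 for Meg3 1428765_at and -0.0272 (without replicate 1) to 0.268 for Rian 1440001_at, which was also negative without replicate 3. It gave -0.0276 (without replicate 3) to 0.267 for Malat1 1436202_at and -0.0622 (without replicate 1) to 0.0855 for Malat1 1452378_at, also negative without replicate 3. For Neat1 1442881_at it gave -0.0751 to 0.0277 (without replicate 3).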
